A study of Mus musculus with 6 samples.

Results

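Glutathione transferases and glutathione peroxidases are the enzymes that put the tripeptide glutathione to work, and 33 of their genes (Gst, Mgst and Gpx symbols) were taken by name from the 49652 genes counted in mouse muscle stem cells. All 33 symbols matched a counted gene. The cells came from the uninjured hindlimb of OPA1-Pax7-CreERT2 mice aged 8 to 10 weeks. Cre-negative animals form the WT group (3 libraries) and Cre-positive animals the KO group (3 libraries), and both groups were given tamoxifen by gavage on 5 days and collected 3 days afterwards. Pax7-CreERT2 is a Cre recombinase made in Pax7-expressing cells and switched on by tamoxifen, so Cre and loss of Opa1 come together in the KO group and cannot be told apart. Cells were sorted as positive for alpha-7 integrin and VCAM and negative for Sca1, CD45 and CD31, and RNA was extracted at once. The labels do not say how many mice went into a library or that the libraries came from separate animals. The p-values measure the spread between these libraries, and how far this is a spread between animals is not known. Sex-linked genes, given below, differed between libraries of a group, so these were not all repeats of the same source.

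Glutathione carries a reactive thiol. Transferases join that thiol to electrophilic compounds, which makes them more soluble and ready for export, and the cytosolic enzymes fall into classes named by Greek letters, beside a mitochondrial kappa enzyme and a family of small membrane proteins (Mgst). Peroxidases such as Gpx1 and Gpx4 spend glutathione to reduce hydrogen peroxide and lipid peroxides. Gpx1 to Gpx4 carry selenocysteine in the active site, while Gpx7 and Gpx8 are cysteine enzymes of the endoplasmic reticulum. The study asks what loss of OPA1, the GTPase that fuses inner mitochondrial membranes, does to resting muscle stem cells.

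Many of these genes arose by duplication, so how far their sequences differ decides which reads could be assigned to them. HTSeq, the counting program named by the submitters, drops reads that align to several places. The first 60 coding bases of the 7 mu class genes are shown because this class holds the member with the clearest difference between the groups. They run 5′ to 3′, and capitals mark bases that differ from Gstm1, or lie in a gap, in an alignment of the whole coding sequence (GENCODE M21 transcripts, GRCm38).
Gstm1: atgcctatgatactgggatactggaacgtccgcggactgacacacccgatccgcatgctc
Gstm2: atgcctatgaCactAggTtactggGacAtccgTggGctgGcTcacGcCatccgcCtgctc
Gstm3: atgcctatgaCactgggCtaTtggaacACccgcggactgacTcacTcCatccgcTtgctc
Gstm4: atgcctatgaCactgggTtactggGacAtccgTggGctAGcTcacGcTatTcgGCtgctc
Gstm5: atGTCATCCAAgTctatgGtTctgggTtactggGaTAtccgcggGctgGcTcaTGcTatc
Gstm6: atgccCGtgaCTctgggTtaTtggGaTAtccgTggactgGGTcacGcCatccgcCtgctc
Gstm7: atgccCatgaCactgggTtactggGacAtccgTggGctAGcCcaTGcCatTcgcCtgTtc

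Over its 657 coding bases Gstm7 was 85.3% identical to Gstm2, its closest relative in the class, and 82.6% identical to Gstm1. These differences are spread along the gene. Of all 50-base windows in its annotated transcripts, 99.5% occurred in no other annotated gene on either strand, and the remaining windows matched Gm17571 and Trim12a, not another transferase. For 100-base windows the share was 100%. The pi class is the opposite case. The coding sequences of Gstp1 and Gstp2 were 98.1% identical, against 73.0% for Gstp1 and Gstp3, and in the lines below capitals mark differences from Gstp1.
Gstp1: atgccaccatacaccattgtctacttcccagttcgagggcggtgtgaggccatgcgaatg
Gstp2: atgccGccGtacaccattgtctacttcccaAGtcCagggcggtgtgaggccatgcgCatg
Gstp3: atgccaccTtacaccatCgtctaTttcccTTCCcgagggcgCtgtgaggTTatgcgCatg

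In all, 20 of the 33 genes had at least 99% of their 50-base windows to themselves, as the plot of windows found in no other gene shows. Gsta1 (9.5%), Gstp2 (45.7%), Gsta2 (50.2%), Gpx4 (65.3%) and Gstp1 (66.3%) lay under 70%. Gpx4 shared 34.7% of its windows with the processed copy Gpx4-ps2, which itself held 1059 to 1548 counts per library. Gstm1 (81.1%) shared windows with Gstm2-ps1 and Gstm3. Counts of these genes are therefore uncertain. Exons of Gstz1, Gstm5 and Gstcd overlap genes on the opposite strand by 465 bases or less per partner (Pomt2 and Gm6566 for Gstz1, 4933431E20Rik for Gstm5, Ints12 for Gstcd), and because no strand setting of the counting is given in the sources used here, reads from these stretches cannot be told apart.

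**Figure D1:**
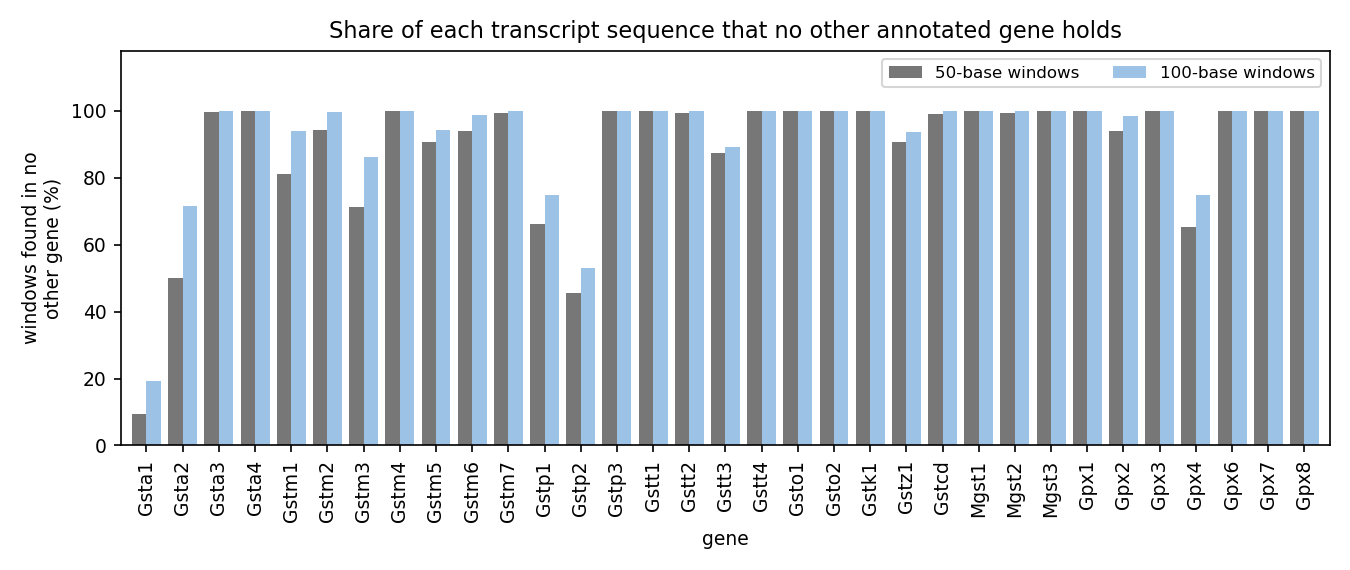
Share (%) of 50-base and 100-base windows of each gene's annotated transcripts that occur in no other annotated gene, for the 33 genes in order of class. Gstm7 stands at 99.5% for 50-base windows, and Gsta1 is the lowest at 9.5%.

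Gene counts came to 41410136 to 56606886 a library. Opa1, the targeted gene, had values of 68.2, 31.4 and 68.8 CPM (WT) against 17.5, 34.4 and 27.1 CPM (KO), listed here and throughout in the order of replicates 1, 2 and 3. CPM is a gene's count scaled to a common library size by edgeR's trimmed mean of M values. By Opa1 the library labelled WT replicate 2 therefore falls among the KO libraries, and each member was also fitted without it. The log2 fold change of Opa1, KO minus WT, was -1.09 (SE 0.37, edgeR's quasi-likelihood test, unadjusted p = 0.0215, adjusted p = 0.99998), and exact permutation of the 6 libraries gave a two-sided p of 0.2, the smallest possible being 0.1. Xist, made in female cells, was at 0.0209 CPM in the library labelled WT replicate 2 and at 244 CPM or more elsewhere, while the Y-linked Ddx3y had 0.0354, 226 and 23.3 CPM (WT) against 0.141, 22.9 and 90.2 CPM (KO). Both genes were thus present in WT replicate 3 and in KO replicates 2 and 3. The stem cell marker Pax7 ranged from 252 to 453 CPM, so every library held RNA of the labelled cell type. Of the defining genes of other cell types, Ptprc (leukocytes) averaged 0.112 CPM in WT and 0.393 CPM in KO, and Pdgfra (fibro-adipogenic cells) 1.35 and 1.63 CPM. These 2 genes were low, but several marker lists summed to more. The sums over libraries were 711 to 1456 CPM (fibro-adipogenic), 430 to 1076 (smooth muscle and pericyte), 136 to 514 (mature fibre) and 33 to 422 (erythroid). Endothelial markers summed to 97.5 to 172 CPM, Schwann to 13.4 to 129, leukocyte to 12 to 33.7 and tenocyte to 6.26 to 13.9. Bulk counts cannot tell fewer cells of a type from less RNA per cell.

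The sorted samples held RNA of a narrow part of the family at high level. Of the 33 genes, 24 had a mean of at least 1 CPM, and 25 passed edgeR's filter on low counts and were tested. Gsta1, Gsta2, Gstp3 and Gpx2 had 0 counts in every library, which allows up to 3 counts, or 0.0528 to 0.0723 CPM per library (counting error only). Gstm3, Gstt4, Mgst2 and Gpx6 had 0 to 19 counts per library and were not tested. Mgst2, a microsomal enzyme that can also make leukotriene C4, had 12 and 9 counts in KO replicates 1 and 3 and none in the other libraries. Gsta3 passed the filter at only 0 to 20 counts per library, and its log2 fold change of -1.39 had an SE of 1.26, moving to -3.07 without KO replicate 3 and to -0.85 without KO replicate 2.

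Levels of different genes were compared per kilobase of exon, so that long genes do not look more abundant. On this scale the order of the means over the 6 libraries began with Gpx3 (8695 CPM per kb), Gstm1 (1489), Gstm2 (160), Gstt1 (106) and Gpx8 (102). Gpx1 (90), Mgst1 (79.0), Gstm5 (76.9), Gpx4 (76.1) and Gstp1 (74.8) followed, with ranges over libraries that overlapped one another. The ranges of Gstm2, Gstt1 and Gpx8 also overlapped one another. Differences between genes within the same library were not tested. The ranges of Gpx3 (5822 to 10365) and Gstm1 (988 to 1975) overlapped neither each other nor those of any other member. Gstm7 stood at 10.5 CPM per kb, 17th by level, between Gstm4 (10.9) and Gstt3 (10.2).

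**Figure D2:**
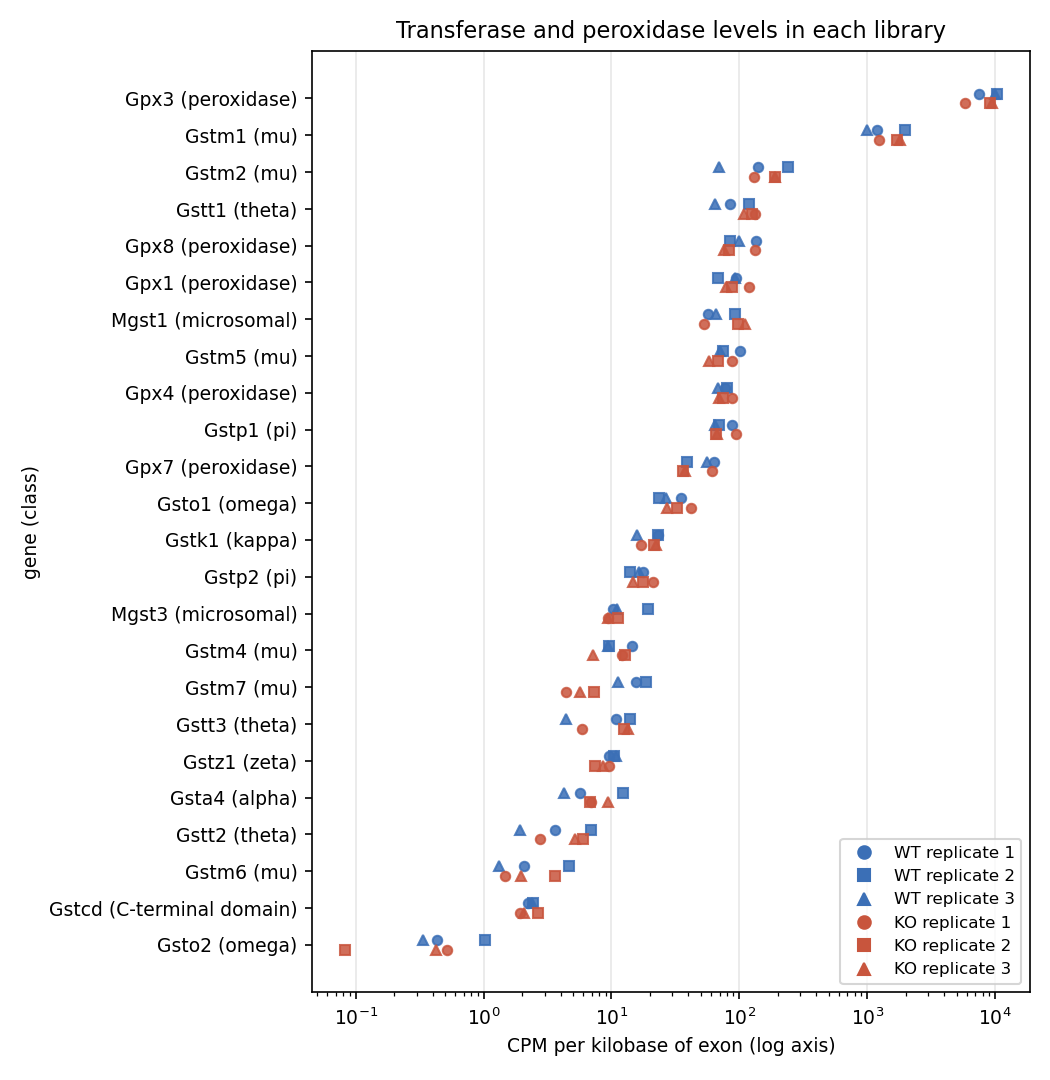
Level of the 24 genes with a mean of at least 1 CPM, in CPM per kilobase of exon on a log axis, with a symbol for each of the 6 libraries (blue WT, red KO) and the class in brackets. Gpx3 lies at 5822 to 10365 in every library, Gstm1 next at 988 to 1975, and for Gstm7 the red and blue symbols do not overlap.

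Gpx3, the secreted glutathione peroxidase known from blood plasma, drew more reads than any other gene in all 6 libraries. It is ENSMUSG00000018339.11, on chromosome 11 from 54902453 to 54910377, plus strand of GRCm38. Of all gene counts it took 1.36%, 1.86% and 1.84% (WT) against 1.05%, 1.64% and 1.71% (KO). It ranked 1st by CPM in each library, and 1st or 2nd per kilobase. In CPM the values were 13595, 18791 and 18245 in WT and 10554, 16397 and 17002 in KO. Replicate 1 of each group was the lowest of its group, and the groups overlapped. The means were 16877 ± 2855 CPM in WT and 14651 ± 3561 CPM in KO (SD, n = 3), with a log2 fold change of -0.20 (95% interval -0.76 to 0.35, edgeR adjusted p = 0.99998). Without KO replicate 1 the log2 fold change was -0.02, and without WT replicate 1 it was -0.34.

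Gpx1, the cytosolic and mitochondrial enzyme that removes hydrogen peroxide, stood at 135, 98.3 and 132 CPM (WT) against 172, 126 and 114 CPM (KO). KO replicate 1 was highest and the library labelled WT replicate 2 lowest, with overlap between the groups (log2 fold change 0.17, SE 0.21, and -0.02 without KO replicate 1). Gpx4 reduces phospholipid hydroperoxides in membranes and protects cells from ferroptosis. It was at 134, 137 and 117 CPM (WT) against 150, 128 and 120 CPM (KO), the narrowest spread among the peroxidases, at 1.29-fold from the lowest to the highest library. Its log2 fold change was 0.04 (95% interval -0.29 to 0.37), and the processed copy Gpx4-ps2 had -0.05.

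The endoplasmic reticulum peroxidases Gpx7 and Gpx8 set the same libraries apart. Gpx7 had 82.4, 50 and 72.3 CPM (WT) against 78.2, 46.6 and 48.4 CPM (KO). Gpx8 had 141, 89.2 and 104 CPM (WT) against 140, 86.4 and 80.2 CPM (KO). For both genes WT replicates 1 and 3 and KO replicate 1 lay above the other 3 libraries, so the groups overlapped. Gpx1, which is not confined to this compartment, split the libraries in the same way (135, 132 and 172 CPM against 98.3, 126 and 114 CPM). The Ddx3y values above were also lowest in WT replicate 1 and KO replicate 1. The sums of the cycling, fibro-adipogenic, and smooth muscle and pericyte markers were also highest in WT replicates 1 and 3 and KO replicate 1. The summed level of the 6 cycling genes listed was 165, 10.7 and 172 CPM (WT) against 372, 21 and 12.7 CPM (KO), with none of the 6 at 0 in all libraries. The fibro-adipogenic sum was 1456, 798 and 1376 CPM (WT) against 926, 745 and 711 CPM (KO). For smooth muscle and pericyte markers it was 1076, 533 and 592 CPM (WT) against 801, 430 and 491 CPM (KO). The sums of the other marker lists did not split the libraries in this way. The part of cycling, fibro-adipogenic, and smooth muscle and pericyte cells in the Gpx1, Gpx7 and Gpx8 values was not tested. Log2 fold changes were -0.24 (SE 0.27) for Gpx7 and -0.12 (SE 0.27) for Gpx8. They moved to -0.52 and -0.42 without KO replicate 1, and to -0.08 and 0.08 without WT replicate 1. Gpx6, an olfactory enzyme, had 0 to 14 counts.

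**Figure D3:**
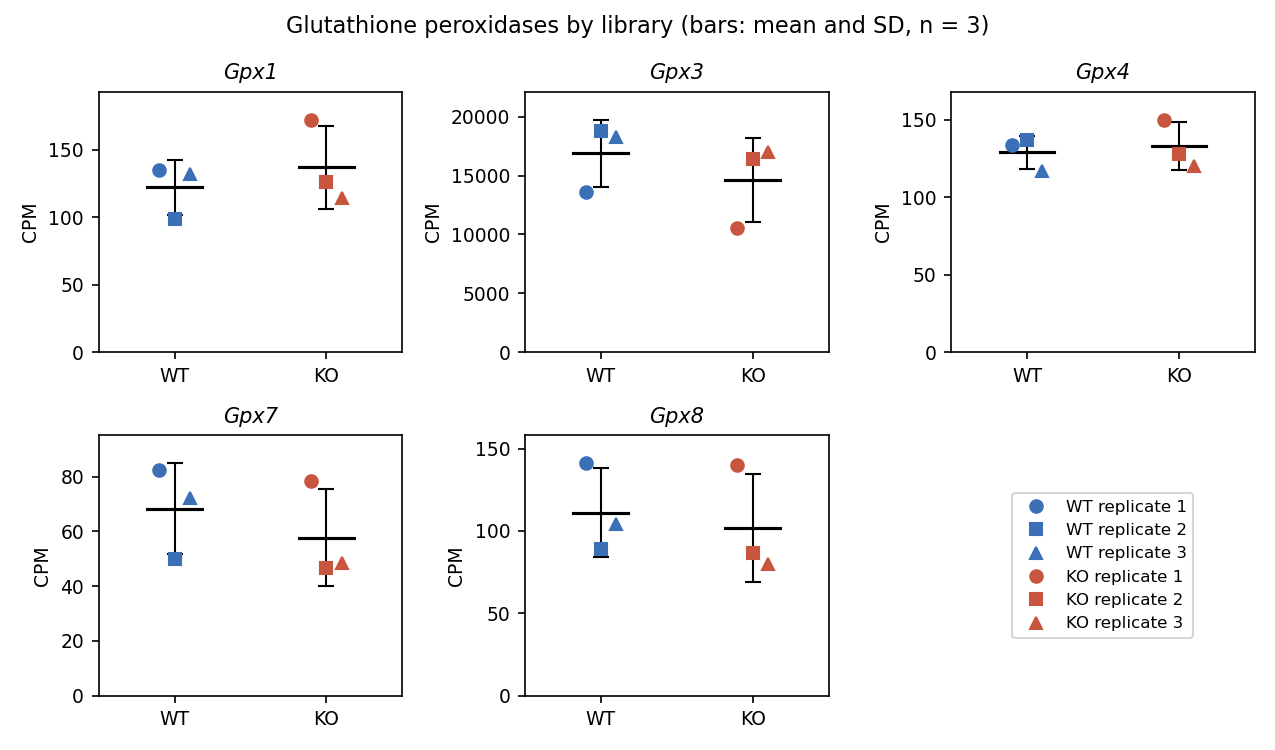
CPM of the 5 expressed glutathione peroxidases in each library (blue WT, red KO, symbol by replicate), with the mean and SD of 3 libraries in black and axes that start at 0. The groups overlap in every panel, and in the Gpx1, Gpx7 and Gpx8 panels WT replicates 1 and 3 and KO replicate 1 lie above the others.

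Among the transferases, Gstm7 of the mu class was the member whose groups stood farthest apart. It is ENSMUSG00000004035.12, on chromosome 3 from 107926334 to 107931817, minus strand of GRCm38. The WT libraries held 25, 29.9 and 18.1 CPM (raw counts 1412, 1431 and 966) and the KO libraries 7.07, 11.7 and 9.02 CPM (352, 486 and 512). Every KO library lay below every WT library, the library labelled WT replicate 2 included, which was the highest. The means were 24.3 ± 5.93 CPM in WT and 9.27 ± 2.34 CPM in KO (SD, n = 3), so KO stood at 38.1% of WT.

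This is a log2 fold change of -1.39 (SE 0.29, 95% interval -2.08 to -0.70) for Gstm7, with an unadjusted p of 0.00203 by edgeR's quasi-likelihood test, the 14th smallest of 18832 genes. Adjusted over all those genes the p was 0.99998, and it did not pass. DESeq2 gave a log2 fold change of -1.40 with an adjusted p of 0.0204, which passed, and limma voom gave an adjusted p of 0.99979. Gstm7 was thus called by 1 of 3 tools. With a library left out in turn the log2 fold change ranged from -1.61 (without KO replicate 2) to -1.22 (without the library labelled WT replicate 2). DESeq2 called 20 genes in all, or 0.106% of those it adjusted, and 0.0479% as lower in KO.

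The other mu genes lie beside Gstm7 in a cluster of 7 on chromosome 3, from 107895821 to 108044894. In the other 5 tested genes the groups overlapped, and their differences from Gstm7 were not tested. Gstm1, a major detoxifying transferase, supplied 80.7% to 86.4% of the CPM of the class and stood at 1754, 2909 and 1456 CPM (WT) against 1837, 2540 and 2663 CPM (KO). Its log2 fold change was 0.20 (SE 0.29), with 0.55 without the library labelled WT replicate 2 and 0.01 without WT replicate 3. The library labelled WT replicate 2 and KO replicates 2 and 3 were the highest 3, and the groups overlapped. Gstm2 ranged from 116 to 406 CPM with the same 3 libraries highest. The log2 fold change of Gstm2 was 0.18 (SE 0.42), with 0.71 without the library labelled WT replicate 2 and -0.16 without WT replicate 3. The library labelled WT replicate 2 and KO replicates 2 and 3 also had the largest shares of reads outside annotated features. These were 16.27%, 15.45% and 17.02% against 11.15% to 14.64% in the others. The part of this in the Gstm1 and Gstm2 values was not tested.

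Gstm5, on the opposite strand from the rest of the cluster, averaged 105 ± 22.1 CPM in WT and 91.1 ± 19.6 CPM in KO (SD, n = 3). Gstm4 averaged 19.1 and 18.3 CPM and Gstm6 5.32 and 4.68 CPM. Log2 fold changes were -0.21, -0.06 and -0.19 in that order, each with a 95% interval that spans 0, and that of Gstm6 (-1.55 to 1.18) also holds the Gstm7 value. Gstm6, the nearest neighbour of Gstm7, changed sign to 0.48 without the library labelled WT replicate 2. Gstm7 made up 1.15%, 0.862% and 1.06% of the CPM of the mu class in WT and 0.321%, 0.392% and 0.293% in KO, so its share of the class separated the groups as its level did. The summed CPM of the class did not, at 1699 to 3464 in WT and 2200 to 3081 in KO.

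**Figure D4:**
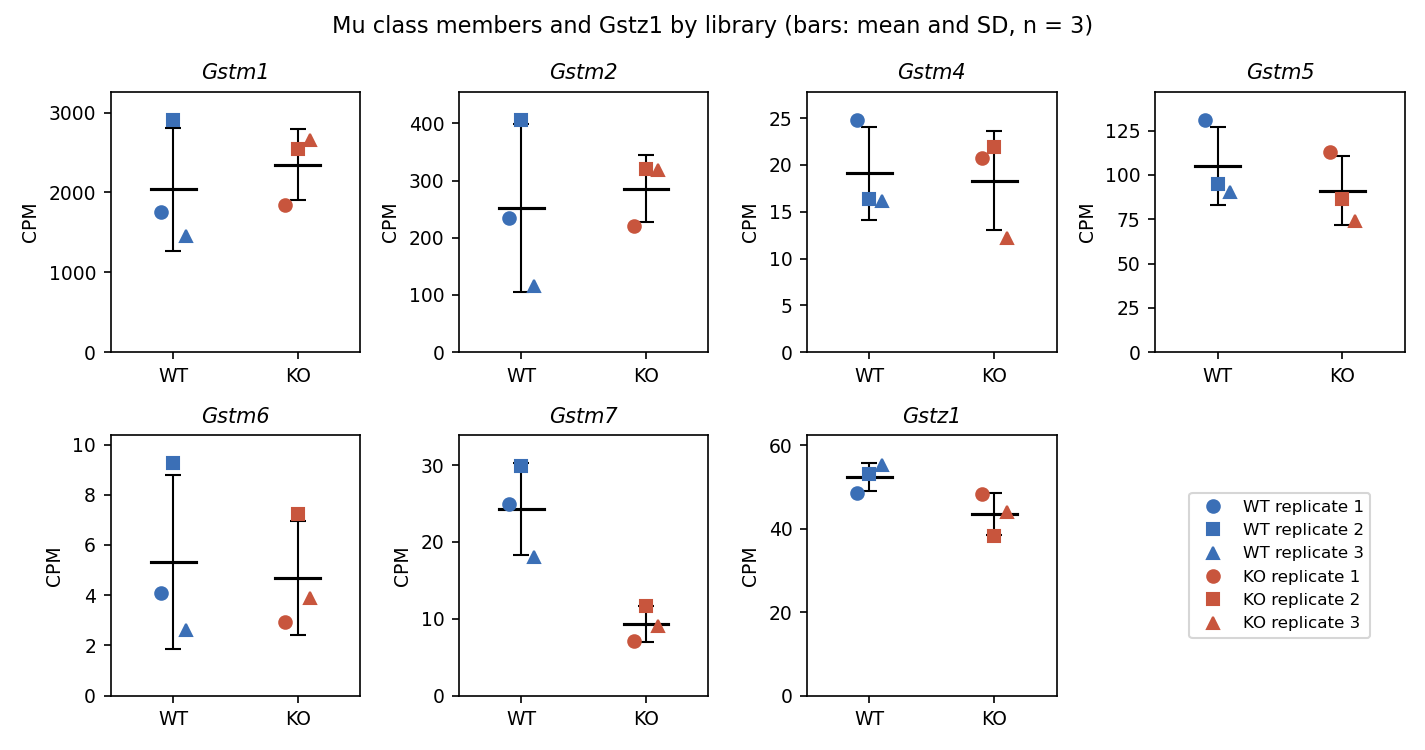
CPM of the 6 tested mu class genes and of Gstz1 in each library (blue WT, red KO, symbol by replicate), with the mean and SD of 3 libraries in black and axes that start at 0. In the Gstm7 panel all KO libraries (7.07 to 11.7 CPM) lie below all WT libraries (18.1 to 29.9 CPM), and in the Gstz1 panel the highest KO library (48.3 CPM) lies just below the lowest WT library (48.6 CPM).

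The sequence upstream of Gstm7 was read because NRF2, the master regulator of antioxidant genes, acts on many transferases through the antioxidant response element. The core searched was TGACNNNGC on both strands of the RefSeq promoter windows (GRCm38.p6), which run from 250 bases before to 50 after each start. Of all 32851 windows, 12.4% held it, against 4 of the 44 windows of 31 members with an entry. These 4 belonged to Gsta3, Mgst1, Gstm5 and the downstream of the Gstm7 starts, where the motif begins 129 bases before the start at 107931614. That match lies inside the annotated gene, which on the minus strand begins at 107931817. The 250 bases before the upstream start, chr3:107931818-107932067 on the minus strand, lie outside the annotated gene and hold no match, so no base is in capitals.
Gstm7 upstream: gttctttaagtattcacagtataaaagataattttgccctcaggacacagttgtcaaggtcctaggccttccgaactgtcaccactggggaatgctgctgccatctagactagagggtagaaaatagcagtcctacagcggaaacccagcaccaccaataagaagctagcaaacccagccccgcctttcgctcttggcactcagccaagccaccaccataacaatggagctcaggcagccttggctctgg

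Gstz1, which isomerises maleylacetoacetate in the breakdown of tyrosine, was the other member whose groups did not overlap, and by a small margin. It had 48.6, 53.0 and 55.2 CPM (WT) against 48.3, 38.2 and 44.0 CPM (KO), so WT replicate 1 and KO replicate 1 nearly met. Its log2 fold change was -0.27 (SE 0.15, edgeR unadjusted p = 0.13, adjusted p = 0.99998), from -0.35 to -0.20 with a library left out. Among all tested genes 6.55% had groups that did not overlap. Every KO library lay below every WT library in 3.12% of genes and in 2 of the 25 tested members, Gstm7 and Gstz1, and above in 3.43% of genes and 0 of the 25.

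The theta class, which handles small halogenated compounds, had positive log2 fold changes in its 3 tested members, and none passed. Gstt1 was at 129, 183 and 99.1 CPM (WT) against 204, 193 and 165 CPM (KO), with the library labelled WT replicate 2 inside the KO range. Its log2 fold change of 0.45 (SE 0.23, edgeR unadjusted p = 0.0935) was the highest of all tested members, and it moved to 0.71 without that library and to 0.26 without WT replicate 3. Gstt2 (7.97 to 28.6 CPM) and Gstt3 (17.1 to 53.2 CPM) varied by over 3-fold between libraries, with WT replicate 3 lowest in both, and turned from 0.16 and 0.13 to -0.18 and -0.22 without it.

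Pi, omega, kappa and alpha class genes showed no separation of the groups. Gstp1, which also binds the stress kinase JNK, had 136, 108 and 101 CPM (WT) against 145, 101 and 103 CPM (KO) (log2 fold change 0.02, SE 0.20), and Gstp2 had 15.6 to 23.6 CPM over all libraries (0.15, SE 0.22). Gsto1, a thioltransferase that also reduces dehydroascorbate, had 70.4, 47.5 and 54.2 CPM (WT) against 84.4, 65.7 and 55.4 CPM (KO) (0.26, SE 0.22). Gsto2 had 8 to 115 counts, with KO replicate 2 lowest, and a log2 fold change of -0.79 (SE 0.81), which was -0.35 without that library and -0.16 without the library labelled WT replicate 2. The kappa gene Gstk1, a mitochondrial and peroxisomal enzyme, had 33.8, 34.2 and 23.3 CPM (WT) against 24.9, 31.4 and 32.9 CPM (KO), and a log2 fold change of -0.03 (95% interval -0.55 to 0.48).

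Gsta4, the alpha enzyme that conjugates the lipid peroxidation product 4-hydroxynonenal, had 7.21, 15.7 and 5.40 CPM (WT) against 8.79, 8.56 and 11.9 CPM (KO). Its log2 fold change of 0.05 became 0.63 without the library labelled WT replicate 2 and -0.23 without WT replicate 3. Gsta4 was highest in the library labelled WT replicate 2 and next in KO replicate 3. The summed level of the 7 mature fibre markers was highest in the same 2 libraries, at 223, 514 and 136 CPM (WT) against 153, 206 and 374 CPM (KO), though single markers such as Myh1 were not. The sums of the 5 Schwann markers (62.3, 129 and 13.4 against 45.5, 43.3 and 121 CPM) and the 7 leukocyte markers (12.6, 27.4 and 12 against 14.5, 18 and 33.7 CPM) were also highest there, and no marker of the 3 lists was at 0 in all libraries. Their part in the Gsta4 values was not tested.

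The membrane enzymes and Gstcd differed by less than the spread between libraries. Mgst1, which sits in the endoplasmic reticulum and outer mitochondrial membrane, had 114, 185 and 133 CPM (WT) against 106, 195 and 220 CPM (KO) (log2 fold change 0.27, SE 0.30). Mgst3 ranged from 10.3 to 21.3 CPM, with the library labelled WT replicate 2 the highest. Without that library its log2 fold change of -0.43 shrank to -0.08. Gstcd, named for a C-terminal transferase-like domain, had 11.9, 13.3 and 13.0 CPM (WT) against 10.4, 14.4 and 11.3 CPM (KO) (-0.08, SE 0.23).

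Over the 25 tested members, edgeR called 0 (0.00% of all genes), and 1, Gstm7, had an unadjusted p under 0.05, where 2.09% of all genes did (1.00% lower and 1.08% higher in KO). DESeq2 called 1 of the 25. Log2 fold changes were positive in 12 and negative in 13, with a median of -0.03, beside 0.01 over all 18832 genes. With the exception of Gstm7, Gsta3 and Gsto2, they lay between -0.43 and 0.45, as the plot of fold changes shows. By class, 2 of 6 tested mu, 2 of 2 pi, 3 of 3 theta, 1 of 2 omega, 1 of 2 alpha, 1 of 2 microsomal and 2 of 5 peroxidase members were positive, as were 0 of the single kappa, zeta and C-terminal domain members. The summed CPM of all 33 genes was 16903 to 23392 in WT and 13996 to 21192 in KO, and without Gpx3 it was 2664 to 4600 and 3441 to 4190.

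**Figure D5:**
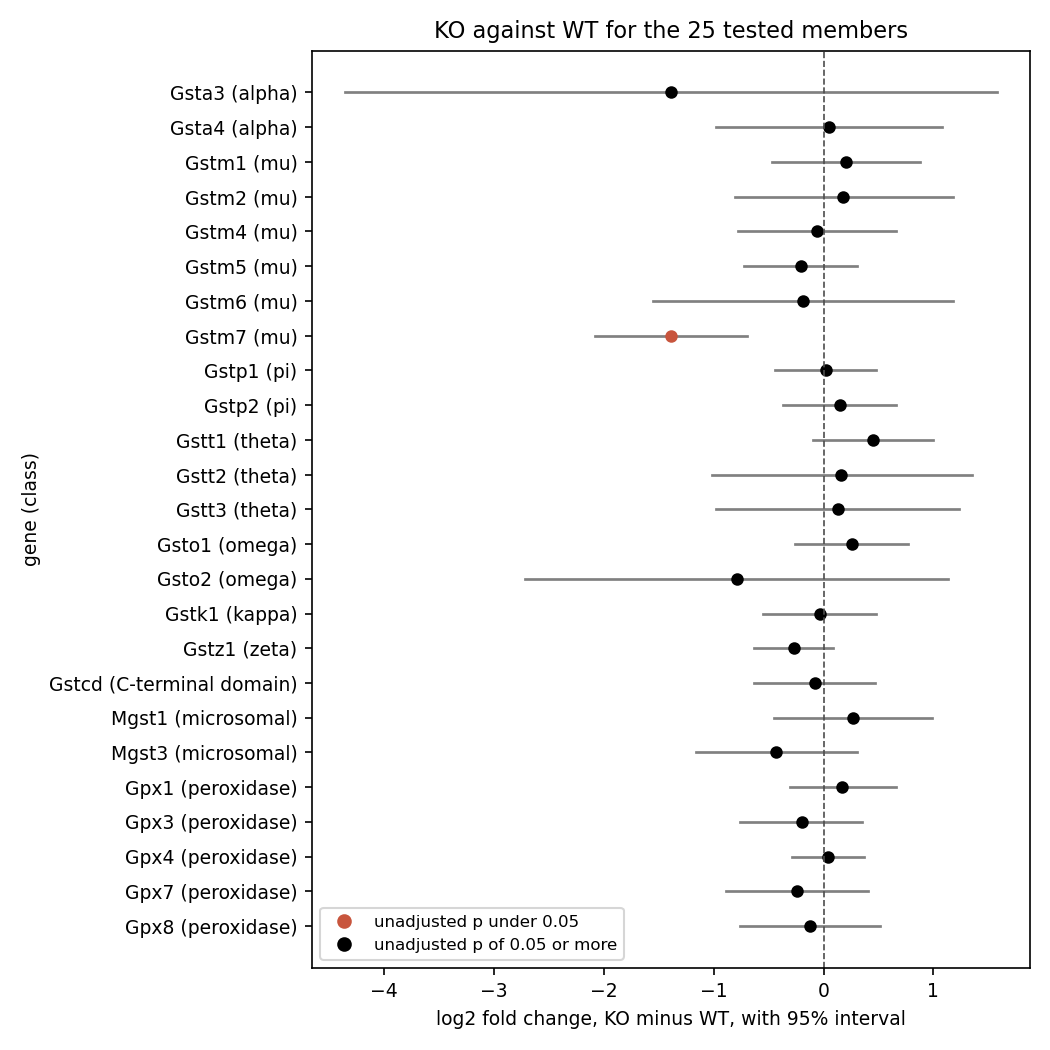
Log2 fold change, KO minus WT, with its 95% interval from edgeR's quasi-likelihood fit for the 25 tested genes, and class in brackets. Only the Gstm7 point (-1.39) is red, for an unadjusted p under 0.05, and the intervals of the other 24 span 0.

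Other glutathione genes were read with selenoprotein synthesis genes, family relatives, NRF2 genes and other peroxide defence genes. These 6 lists held 75 tested genes, of which 41 had positive and 34 negative log2 fold changes. None was called by edgeR or DESeq2, and 1, Ptges, had an unadjusted p under 0.05 by edgeR. Ptges, the inducible prostaglandin E synthase of the same membrane family as the Mgst genes, had 0.919, 1.04 and 0.729 CPM (WT) against 0.141, 0.0964 and 0.194 CPM (KO). Every KO library was lower, at 4 to 11 counts against 39 to 52, with a log2 fold change of -2.62 (SE 0.69, edgeR unadjusted p = 0.00645, DESeq2 adjusted p = 0.713). In the same list of relatives, 7 of 12 tested genes were positive (Clic5 1.68, SE 1.14).

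Glutathione synthesis and reduction genes (5 of 11 positive) included Gclm, the modifier subunit of the rate-limiting ligase, at 12.0, 12.2 and 11.1 CPM (WT) against 16.5, 18 and 12.5 CPM (KO) (0.41, SE 0.23), and the reductase Gsr (0.29, SE 0.28). Breakdown and export genes (8 of 12 positive) included the conjugate pump Abcc1 (0.34, SE 0.18) and Abcc5 (0.19, SE 0.14). Theirs was the only 1 of the 6 pathway lists whose summed CPM did not overlap, by a narrow margin, at 324, 304 and 294 CPM (WT) against 325, 325 and 342 CPM (KO). For selenoprotein synthesis, which the Gpx1 to Gpx4 enzymes need, 6 of 10 were positive, with Scly at -0.28 (SE 0.23) and Trit1 at -0.22 (SE 0.21). Of the NRF2 genes 8 of 15 were positive. Nfe2l2, which encodes NRF2, had 187, 185 and 185 CPM (WT) against 202, 228 and 219 CPM (KO) (0.22, SE 0.11, edgeR unadjusted p = 0.0923), and Osgin1 0.58 (SE 0.26). Other peroxide defence genes had 7 of 15 positive, with Txnrd2 at -0.28 (SE 0.17) and Acsl4 at 0.34 (SE 0.24).

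The summed CPM of the groups overlapped for all 10 marker lists (stem cell, cycling and 8 other cell types). For the fibro-adipogenic markers the sum was 798 to 1456 CPM in WT and 711 to 926 CPM in KO. Most of it came from Col3a1, at 596 to 1335 CPM, with a log2 fold change of -0.69 (95% interval -1.29 to -0.09, edgeR unadjusted p = 0.0304), and Dcn was next at 0.05. The stem cell marker Calcr, the calcitonin receptor, was lower in every KO library, at 273, 229 and 349 CPM (WT) against 178, 165 and 228 CPM (KO), with a log2 fold change of -0.58 (SE 0.20, edgeR unadjusted p = 0.0244). It was named after its values were seen. The most abundant pair of each other list given here was Tek and Pecam1 (endothelial, log2 fold changes -0.24 and -0.36), Cd74 and Cd68 (leukocyte, 0.29 and -0.06), Acta1 and Tnnt3 (fibre, -0.27 and -0.31), Acta2 and Rgs5 (smooth muscle and pericyte, -0.48 and 0.14), Hbb-bs and Hba-a1 (erythroid, -0.55 and -0.41), Mkx and Fmod (tenocyte, 0.69 and -0.51), Top2a and Mki67 (cycling, 0.44 and 0.16) and Chodl and Sdc4 (stem cell, -0.28 and 0.16). With a library left out, Top2a ran from -3.76 to 0.99 and Mki67 from -3.70 to 0.73. None of these genes was called.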

How the data were processed

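RNA-seq of 6 libraries was analysed, from raw counts of reads in genes as the authors deposited them. The submitters' processing notes list Trim Galore 0.5.0, cutadapt 2.5, STAR 2.6.0c and HTSeq 0.6.1p2 on GRCm38, and edgeR and DESeq2 without versions. No annotation release, strand setting or read length is given in these sources. The 5 summary rows were left out. They include reads without a feature (11.15% to 17.02% of all reads) and reads aligned more than once (14.82% to 24.57%), which are absent from paralog counts.

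Symbols, positions and exon lengths came from GENCODE M21 (49399 of 49652 gene rows matched). KO was compared with WT in R 4.3.3 with edgeR 4.0.16 (TMM, filterByExpr, robust quasi-likelihood test, Benjamini-Hochberg over 18832 genes, called at adjusted p under 0.05), with DESeq2 1.42.0 and limma 3.58.1 voom as alternatives. The SE of a log2 fold change was taken as its size divided by the root of the F statistic. Named members are the highest per kilobase in each class, those called or at an unadjusted p under 0.05, those of mean CPM of at least 1 with groups that do not overlap, and expressed peroxidases. From pathway lists the 2 genes of smallest p, and from marker lists the 2 most abundant, are named, and others are given only to describe the class or the cells. Dpep2 has 2 gene rows, of which the more abundant was used, and Clic2 was not matched. The pair of the Schwann list is not reported here. Windows of 50 and 100 bases were compared over all GENCODE M21 transcripts, and coding sequences were aligned with Biopython 1.88. The edgeR fit was also run on simulated data, with a smaller spread between libraries than in these data, so that run does not measure its power here. The members, lists and tests were chosen with earlier results of these data known.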

Additional observations from a re-analysis of the deposited data

How the results depend on the processing

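EdgeR called 0 genes, and 0 members, in its fit of all 6 libraries, with DESeq2's size factors, without the filter on low counts, with robust estimation off, with the replicate block and in the 6 fits that left out a library. The voom fit by limma likewise called 0 genes. DESeq2 called 20 genes and 1 member, Gstm7, and the cause was not tested. Over the 12 alternatives Gstm7 stayed between -1.61 and -1.22, and its adjusted p ran from 0.0204 (DESeq2) to 0.99999. Genes at an unadjusted p under 0.05 numbered 393 by edgeR, 518 by DESeq2 and 468 by limma voom, with 864 without the filter and 324 to 818 with a library left out (818 without KO replicate 1, 693 without WT replicate 1, 614 without the library labelled WT replicate 2). Of the 25 tested members, 13 kept their sign in all 12 alternatives and 12 did not. The members' median ranged from -0.17 (without WT replicate 3) to 0.07 (without WT replicate 1). Opa1 stayed between -1.38 and -0.87. The summed CPM of 9 classes (all but Gstcd's) moved by less than the spread between libraries with plain library totals and with each library left out. Per kilobase of the longest transcript instead of all exons, Gstp1 moved from 10th to 5th by level. The replicate numbers share only a label. Deviations of same-numbered libraries from their group means correlated at 0.24, 0.11 and -0.07, and the library labelled WT replicate 2 correlated best with KO replicate 3 (0.21). With the replicate block 515 genes had an unadjusted p under 0.05, and Gstm7 was at -1.39. At this depth a gene with 0 counts may still have a level of up to 3 counts per library (0.0528 to 0.0723 CPM), by counting error alone.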
